A study of Rattus norvegicus with 4 samples.

Results

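The 10 genes described here encode the epithelial channels, pumps, binding protein and sensors for magnesium and calcium. They were chosen by symbol, and each was taken from an array row that carries a single gene symbol, with the row of highest mean used where a gene has several. All 10 were measured, each by 1 row, among 13215 named genes on 19403 rows. Expression was measured in surface colonocytes, the absorptive cells that line the lumen of the distal colon, from 4 Wistar rats aged 12 weeks. Of these, 2 rats received aldosterone for 2 h, as a subcutaneous injection of 50 µg/100 g body weight and an osmotic minipump set to deliver 10 µg/kg per hour, and their cells were shaken off the inverted colon for 40 min with 100 nM aldosterone. The other 2 rats received vehicle by injection, minipumps that delivered PEG300, and vehicle during the shaking. All 4 rats had both adrenal glands removed 4 days earlier and drank 0.9% NaCl, so that the vehicle rats are hormone-depleted and not untreated animals. Each rat gave 1 Affymetrix exon array, and the labels call the arrays of a group biological replicates.

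Magnesium and calcium are absorbed through colonocytes in steps. Channels of the luminal membrane let the ion in, and binding proteins carry calcium across the cell. Pumps and exchangers of the basolateral membrane move the ions out towards the blood. The calcium-sensing receptor reads the extracellular ion, and the vitamin D receptor controls transcription of the calcium genes. Aldosterone, best known for raising sodium absorption in this tissue, was here compared with vehicle to find the genes that differ within hours.

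The promoters of the 2 channel genes with the largest differences between the groups, Trpm6 and Trpv6, are shown first because these genes stood in opposite directions. The sequences are RefSeq windows of the GRCr8 rat assembly, from 250 bases before the annotated transcription start to 50 bases after it. Capitals mark the hexamers AGAACA, the reverse complement of the corticosteroid receptor half-site TGTTCT, and AGGTCA, a half-site of nuclear receptors such as the vitamin D receptor. The Trpm6 window lies at chr1:225596058-225596357 on the plus strand, and is 1 of 3 annotated for this gene. Another is the same window moved by 1 base, and the third, at chr1:225559278-225559577, holds 32.7% G and C and none of the hexamers searched here. The Trpv6 window lies at chr4:71489618-71489917 on the minus strand.
Trpm6: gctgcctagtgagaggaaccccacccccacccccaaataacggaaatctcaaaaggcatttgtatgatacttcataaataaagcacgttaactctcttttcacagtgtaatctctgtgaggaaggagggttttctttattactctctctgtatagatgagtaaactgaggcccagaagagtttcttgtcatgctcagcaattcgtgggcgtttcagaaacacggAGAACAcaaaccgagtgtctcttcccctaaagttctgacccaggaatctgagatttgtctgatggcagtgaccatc
Trpv6: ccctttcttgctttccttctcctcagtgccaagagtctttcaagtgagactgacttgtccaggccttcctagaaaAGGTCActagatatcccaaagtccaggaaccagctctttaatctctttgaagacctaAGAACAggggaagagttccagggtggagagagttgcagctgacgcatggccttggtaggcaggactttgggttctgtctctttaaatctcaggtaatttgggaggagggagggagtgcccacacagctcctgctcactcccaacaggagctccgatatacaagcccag
AGAACA began 26 bases before the start in the Trpm6 window and 118 bases before it in the Trpv6 window, and AGGTCA began 175 bases before the Trpv6 start. These hexamers do not overlap. Searched on both strands, TGTTCT was present in 20.7% of all 33469 windows of this length and AGGTCA in 16.2%, so that a match is common.

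Windows were found for 8 of the 10 genes. Their base composition differed widely. The windows of Atp2b1, Cnnm2, Trpm7, Casr and Vdr held 74.3%, 69.0%, 68.0%, 64.7% and 64.3% G and C. Those of Trpv6, Atp2b4 and the Trpm6 window printed above held 50.7%, 44.7% and 44.7%, beside a median of 51.7% over all windows. The GC box GGGCGG, searched on both strands and present in 33.1% of all windows, was found for Trpm7, Cnnm2, Atp2b1 and Vdr. Casr held TGACCT, the reverse complement of AGGTCA, beginning 23 bases before its start. A match is a description of the letters and shows no binding.

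Values below are on the log2 scale, as in the authors' deposited table, and differences are aldosterone minus vehicle with the 95% interval of the fit in limma. Means carry the SD over the 2 rats of a group. The arrays had medians between 2.22 and 2.44, and 65.0% of rows had a mean below 3, near the floor. Genes known to respond to aldosterone separated the groups, with Sgk1 at 12.54 and 12.52 in aldosterone rats against 10.51 and 10.64 in vehicle rats, and the other 4 read for this check (Tsc22d3, Scnn1g, Fkbp5 and Per1) also higher in both aldosterone rats. The epithelial adhesion gene Epcam stood at 11.76 and 11.81 in aldosterone rats against 11.74 and 11.65 in vehicle rats. All 9 measured surface colonocyte markers had a mean of at least 4, as did 1 of 7 markers of crypt and cycling cells and 0 of 7 of enteroendocrine and tuft cells. Among the surface markers, Slc9a3 reached that mean only through aldosterone replicate 1, at 8.39 against 3.44, 2.48 and 3.99 on the other arrays. The 3 measured goblet cell markers also each had a mean of at least 4. Each of the 6 measured smooth muscle and stroma markers, 5 immune markers and 4 markers of enteric neurons and glia had a mean below 4. Because a tissue preparation was measured, fewer cells of a type and less RNA per cell cannot be told apart.

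None of the 10 genes passed an adjusted p of 0.05 in limma, where 0% of all rows passed. With a prior spread that follows expression level, 0 of the 10 passed and 0.108% of rows did. At an unadjusted p under 0.05, Trpm6 alone was below the threshold, 1 of 10, where 4.53% of all rows were. By direction this is 1 of 10 higher, against 2.19% of all rows, and 0 of 10 lower, against 2.34%. The aldosterone and vehicle values did not overlap for 3 of the 10, Trpm6 and S100g on the higher side and Cnnm4 on the lower side, where 27.8% of all rows did not overlap. By direction this is 2 of 10 higher, against 16.7% of all rows, and 1 of 10 lower, against 11.1%. Among rows with a mean of at least 4, as 9 of the 10 genes had, 18.7% were lower without overlap. These shares of 10 genes lie near those of all rows. Of the 10 differences, 5 were positive and 5 negative, with a median of 0.0193, against a median of 0.0239 over all rows. Over rows with a mean of at least 4 the median was -0.0405.

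**Figure D1:**
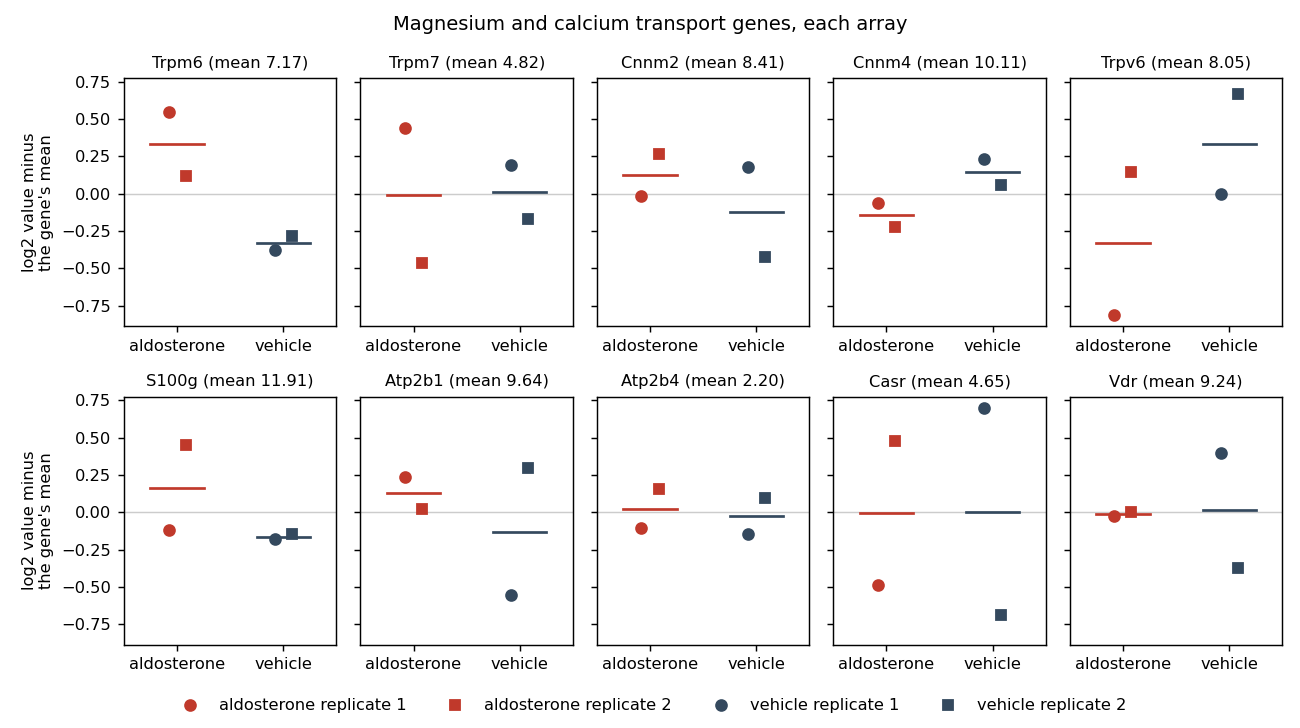
Log2 value of each of the 10 genes on each array, shown as its distance from the mean of that gene over the 4 arrays. Red marks are aldosterone rats and dark marks vehicle rats, circles are replicate 1 and squares replicate 2, and a bar is the mean of a group; the groups separate for Trpm6, Cnnm4 and S100g, and the vehicle rats lie far apart for Casr, Vdr and Atp2b1.

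Trpm6, the channel fused to a kinase that carries magnesium through the luminal membrane of the colon and the distal convoluted tubule of the kidney, stood higher in the aldosterone rats. Its values (row 7040260) were 7.72 and 7.29 in aldosterone rats, against 6.79 and 6.89 in vehicle rats. Both aldosterone values lay above both vehicle values, by 0.40 on the log2 scale at the nearest. The difference was 0.66 (interval 0.16 to 1.16), or 1.58-fold, with an unadjusted p = 0.0208 and an adjusted p = 0.909 in limma. This was the one interval of the 10 that left out 0. The difference between the groups rested in part on aldosterone replicate 1, without which it was 0.45 (unadjusted p = 0.0648 in limma), and it was 0.88 without aldosterone replicate 2. The unadjusted p in limma was 0.0933 without vehicle replicate 1 and 0.0676 without vehicle replicate 2. With the prior that follows expression level its unadjusted p = 0.0525, so that Trpm6 then no longer lay below 0.05.

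Trpm7, the relative of Trpm6 that is found in nearly all cells, showed no separation. It stood at 5.26 and 4.35 in aldosterone rats, against 5.01 and 4.65 in vehicle rats (row 7244400). The aldosterone rats enclosed both vehicle rats. The difference was -0.0237 (interval -0.997 to 0.95), with an adjusted p = 1.00 in limma. Its sign turned without aldosterone replicate 2 (0.43), without vehicle replicate 1 (0.16) and with quantile normalization (0.00589).

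The cyclin M genes encode membrane proteins tied to magnesium efflux. Cnnm4, which exports magnesium through the basolateral membrane of the intestine in mice, was lower in both aldosterone rats. It stood at 10.05 and 9.89 in aldosterone rats, against 10.34 and 10.17 in vehicle rats (row 7353440). The groups did not overlap, and the nearest values were 0.12 apart. The difference was -0.29 (interval -0.64 to 0.0609), 1.22-fold lower, with an unadjusted p = 0.0842 and an adjusted p = 1.00 in limma. Its rats differed little within a group, by 0.16 among aldosterone rats and 0.18 among vehicle rats, and the difference without 1 array ran from -0.38 to -0.20.

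Cnnm2, the cyclin M gene of the kidney's distal tubule that is mutated in inherited loss of magnesium, overlapped between the groups. It stood at 8.39 and 8.68 in aldosterone rats, against 8.59 and 7.99 in vehicle rats (row 7042688). Vehicle replicate 2 was the low array. The difference was 0.25 (interval -0.44 to 0.94), with an adjusted p = 1.00 in limma, and it was -0.0534 without vehicle replicate 2.

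Trpv6, the calcium channel of the luminal membrane, had the largest difference in size on the lower side. It stood at 7.24 and 8.20 in aldosterone rats, against 8.05 and 8.72 in vehicle rats (row 7264198). The values overlapped, since aldosterone replicate 2 lay above vehicle replicate 1, and replicate 2 was the higher rat of each group. The difference was -0.66 (interval -1.82 to 0.49), 1.59-fold lower, with an unadjusted p = 0.186 and an adjusted p = 1.00 in limma. It was -0.19 without aldosterone replicate 1 and -1.14 without aldosterone replicate 2. Without vehicle replicate 1 it was -0.999, and without vehicle replicate 2 it was -0.33, so that its size moved with each rat left out.

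S100g, which encodes calbindin-D9k, the cytosolic protein that carries calcium across the absorptive cell, did not follow the channel. It stood at 11.79 and 12.36 in aldosterone rats, against 11.73 and 11.77 in vehicle rats (row 7374777). The groups did not overlap, but aldosterone replicate 1 lay just 0.0261 above the nearer vehicle rat. The difference was 0.33 (interval -0.28 to 0.94), with an unadjusted p = 0.210 and an adjusted p = 1.00 in limma, and it was 0.0436 without aldosterone replicate 2 and 0.61 without aldosterone replicate 1.

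Atp2b1 encodes the plasma membrane calcium pump PMCA1, which drives calcium out of the cell on its basolateral side. It stood at 9.88 and 9.66 in aldosterone rats, against 9.09 and 9.94 in vehicle rats (row 7314252). Vehicle replicate 1 was low and vehicle replicate 2 was the highest of all. The difference was 0.26 (interval -0.63 to 1.14), with an adjusted p = 1.00 in limma. It was -0.17 without vehicle replicate 1 and 0.69 without vehicle replicate 2.

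Atp2b4, which encodes the pump PMCA4, was near the floor of the arrays. It stood at 2.09 and 2.35 in aldosterone rats, against 2.05 and 2.29 in vehicle rats (row 7111227), below the median row mean of 2.35. Its difference of 0.0470 (interval -0.38 to 0.48) is of values that may be background, and its sign turned without vehicle replicate 1 (-0.0750), without aldosterone replicate 2 (-0.0824), with quantile normalization (-0.00256) and with arrays centred on their medians (-0.0107).

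Casr, the receptor through which cells sense extracellular calcium, varied most between rats of a group. It stood at 4.16 and 5.13 in aldosterone rats, against 5.34 and 3.96 in vehicle rats (row 7093768). The vehicle rats enclosed both aldosterone rats, and the vehicle rats lay 1.39 apart, a gap larger than that of 98.3% of the 4815 rows whose mean was at least 4. The difference was -0.00845 (interval -1.65 to 1.63), with an adjusted p = 1.00 in limma. The interval is wide enough to hold a 2-fold change either way. The sign turned without aldosterone replicate 1 (0.47), without vehicle replicate 1 (0.68) and with quantile normalization (0.0844), and the difference was -0.70 without vehicle replicate 2.

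Vdr, the vitamin D receptor gene, stood at 9.21 and 9.24 in aldosterone rats, against 9.64 and 8.86 in vehicle rats (row 7331440). The aldosterone rats were nearly alike, 0.0234 apart, while the vehicle rats lay 0.78 apart on either side of them. The difference was -0.0241 (interval -0.81 to 0.77), with an adjusted p = 1.00 in limma. It was 0.36 without vehicle replicate 1 and -0.41 without vehicle replicate 2.

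For 8 of the 10 genes, the rats of at least one group differed from each other by more than the group means did. The exceptions were Trpm6 and Cnnm4. Among rows whose mean was at least 4, the median gap between the rats of a group was 0.29 for aldosterone and 0.31 for vehicle. Trpm7, Trpv6 and Casr had gaps between aldosterone rats larger than in 90% of those rows, and Atp2b1 and Casr had such gaps between vehicle rats. At the other end, the vehicle rats differed by 0.0349 for S100g and by 0.0964 for Trpm6.

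**Figure D2:**
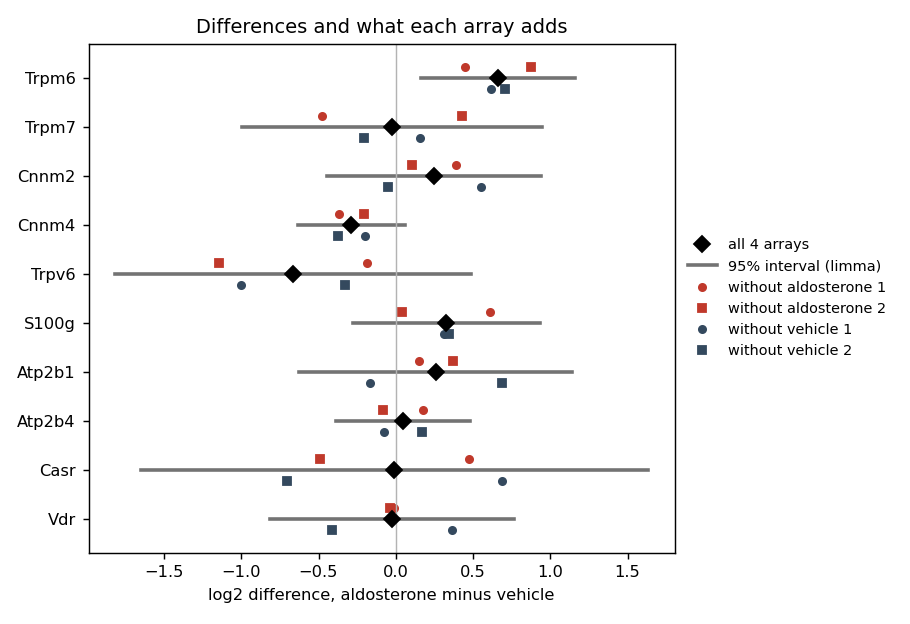
Log2 difference of each of the 10 genes, aldosterone minus vehicle (diamond), with its 95% interval in limma (line) and the difference with each array left out in turn (red for an aldosterone array, dark for a vehicle array; circles replicate 1, squares replicate 2). Trpm6 is the one gene whose interval leaves out 0, and leaving out 1 array moves Casr between -0.70 and 0.68.

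Related genes were also set against each other. The difference between 2 genes was taken within each array for 5 pairs, which shows unequal change and not which gene is more abundant. Trpm6 minus Trpm7 was 2.46 and 2.93 in aldosterone rats, against 1.78 and 2.24 in vehicle rats, a shift of 0.69. Cnnm2 minus Cnnm4 was -1.66 and -1.21 in aldosterone rats, against -1.75 and -2.18 in vehicle rats, a shift of 0.54. These shifts describe the 4 rats, and the pairs were chosen with earlier results of these data known.

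Along the calcium route, Trpv6 minus S100g was -4.55 and -4.17 in aldosterone rats, against -3.68 and -3.05 in vehicle rats. The shift of -0.99 was the largest of the 5, with the channel gene lower relative to the binding protein gene in both aldosterone rats. Trpv6 minus Atp2b1 was -2.64 and -1.47 in aldosterone rats, against -1.04 and -1.22 in vehicle rats, a shift of -0.92. The pairs share Trpv6, S100g and Atp2b1 and are not independent. Atp2b1 minus S100g overlapped, at -1.91 and -2.70 in aldosterone rats against -2.64 and -1.83 in vehicle rats. In an exact two-sided permutation test over rats, the 4 pairs that did not overlap each had p = 0.333, the smallest that 2 rats against 2 can give, and Atp2b1 minus S100g had p = 0.667. The smallest exact p adjusted over the 5 pairs was 0.417, so that no pair could pass in this design. No share of non-overlap over other gene pairs is given here, and no conclusion is drawn from the pairs that separated.

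**Figure D3:**
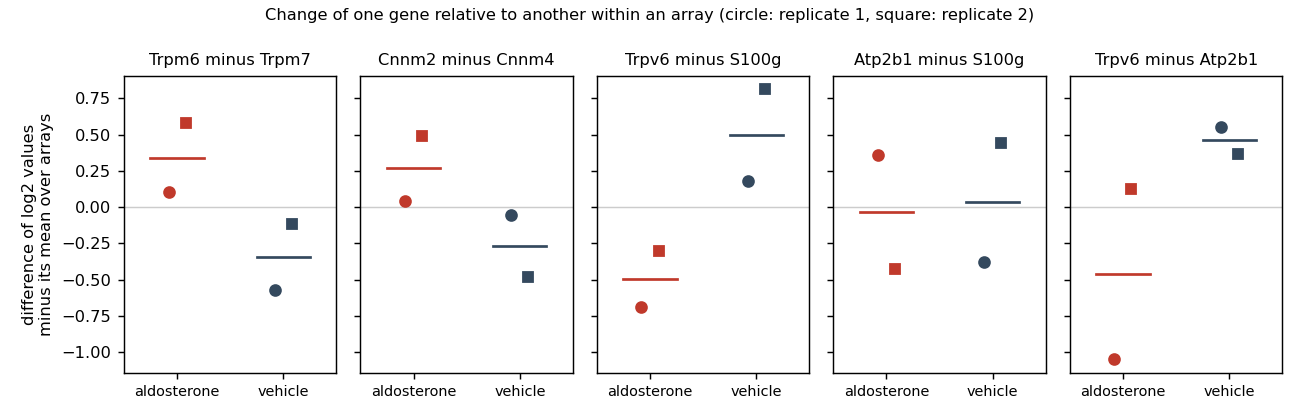
Difference between the log2 values of 2 genes within each array, minus its mean over the 4 arrays, for 5 pairs of the described genes (red aldosterone, dark vehicle; circles replicate 1, squares replicate 2; bars are group means). The groups separate for each pair except Atp2b1 minus S100g, most widely for Trpv6 minus S100g with a shift of -0.99. Each separated pair had p = 0.333 in the exact permutation test, the smallest that 2 rats against 2 can give. The pairs share genes and were chosen with earlier results of these data known. No share of separated pairs among other genes is given here.

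The other genes of magnesium handling gave no call. Of 22 genes in this list 13 were measured, 9 with a positive and 4 with a negative difference (median 0.0586), and 0 passed at an adjusted p of 0.05 or an unadjusted p under 0.05 in limma, where 0% and 4.53% of all rows did. Mmgt1, a membrane magnesium transporter gene, stood at 6.15 and 6.08 in aldosterone rats, against 6.34 and 6.26 in vehicle rats. Magt1, which encodes a magnesium transporter and oxidoreductase, stood at 6.36 and 6.89 in aldosterone rats, against 6.89 and 6.75 in vehicle rats, with overlap. Ptp4a1, a phosphatase gene whose product binds cyclin M proteins, stood at 10.71 and 10.56 in aldosterone rats, against 10.70 and 10.19 in vehicle rats. Rack1, which encodes a scaffold protein that binds the kinase of TRPM6, stood at 7.74 and 8.08 in aldosterone rats, against 8.06 and 7.64 in vehicle rats. Apart from Mmgt1, these overlapped between the groups.

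Other genes of calcium entry at the plasma membrane and of its control gave no call. Of 14 genes 11 were measured, 6 with a positive and 5 with a negative difference (median 0.000985). The 4 with a mean of at least 4 had negative differences, where 55.5% of all rows with such a mean did. Saraf, which encodes an inhibitor of entry, is among them, so that the shared sign is not a shared loss of entry genes. Stim2, the endoplasmic reticulum sensor that opens store-operated channels, stood at 4.53 and 4.52 in aldosterone rats, against 5.05 and 4.83 in vehicle rats (difference -0.42, interval -0.75 to -0.0816, unadjusted p = 0.0257 and adjusted p = 0.949 in limma). Saraf, which encodes an inhibitor of store-operated entry, stood at 8.83 and 9.02 in aldosterone rats, against 9.89 and 9.16 in vehicle rats. Trpm4, a cation channel gene opened by calcium, stood at 6.34 and 5.75 in aldosterone rats, against 6.46 and 6.66 in vehicle rats. Orai1, the pore gene of store-operated entry, stood at 4.01 and 3.72 in aldosterone rats, against 4.40 and 3.97 in vehicle rats. Orai1 overlapped, and the other 3 were lower without overlap, as were 18.7% of all rows whose mean was at least 4. Over the whole list 5 of 11 genes did not overlap, beside 27.8% of all rows. Of these, 1 was higher, against 16.7% of all rows, and 4 lower, against 11.1%. None passed an adjusted p of 0.05 in limma, and 2 had an unadjusted p under 0.05 in the lower direction, against 2.34% of all rows. The second was Trpc1, a cation channel gene named here after its values were seen, at 3.08 and 3.14 in aldosterone rats, against 3.68 and 3.70 in vehicle rats.

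Among 13 measured genes of calcium extrusion and stores, 7 had a positive and 6 a negative difference (median 0.0678), and 0 passed an adjusted p of 0.05. Of the 7 with a mean of at least 4, 2 differences were positive and 5 negative. Slc8b1, the mitochondrial sodium-calcium exchanger gene, had the largest difference. It stood at 5.21 and 5.69 in aldosterone rats, against 6.79 and 6.34 in vehicle rats, a difference of -1.12 (interval -1.80 to -0.44, unadjusted p = 0.0101 and adjusted p = 0.837 in limma). Itpr3, an inositol trisphosphate receptor gene that releases stored calcium, stood at 6.98 and 6.81 in aldosterone rats, against 8.19 and 7.26 in vehicle rats. Its interval was -1.77 to 0.10. The endoplasmic reticulum pump gene Atp2a2 stood at 8.23 and 8.06 in aldosterone rats, against 8.02 and 7.71 in vehicle rats, and its relative Atp2a3 at 9.08 and 9.36 in aldosterone rats, against 9.46 and 9.38 in vehicle rats. Slc8a2, a plasma membrane sodium-calcium exchanger gene, stood at 4.42 and 4.55 in aldosterone rats, against 4.17 and 4.24 in vehicle rats. None of these 5 overlapped between the groups, but they were named for the smallest unadjusted p, which favours such genes. Over the list 6 of 13 genes did not overlap, where 27.8% of all rows did not. Of the 13, 2 were higher without overlap, against 16.7% of all rows, and 4 lower, against 11.1%.

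Among the genes of calcium binding and channel trafficking, S100a10 separated the groups in the higher direction. S100a10, the annexin partner that brings TRPV5 and TRPV6 to the plasma membrane, stood at 12.25 and 12.30 in aldosterone rats, against 11.85 and 11.93 in vehicle rats. Both aldosterone values were higher, with a difference of 0.38 (interval 0.11 to 0.66, unadjusted p = 0.0178 and adjusted p = 0.891 in limma). Anxa2, which encodes its annexin partner, stood at 9.60 and 9.38 in aldosterone rats, against 9.24 and 9.58 in vehicle rats, with overlap. Rab11a, a recycling endosome gene, stood at 9.09 and 8.93 in aldosterone rats, against 9.22 and 9.22 in vehicle rats. Calr, which encodes a calcium-binding chaperone of the endoplasmic reticulum, stood at 9.80 and 9.88 in aldosterone rats, against 10.05 and 9.72 in vehicle rats. Of 13 genes in this list 9 were measured, 4 with a positive and 5 with a negative difference. The groups did not overlap for 3 of the 9, beside 27.8% of all rows, and 0 passed an adjusted p of 0.05.

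The vitamin D and calcium hormone genes gave no call either. Of 16 genes 14 were measured, 7 with a positive and 7 with a negative difference (median 0.0271), and 6 had a mean below the median of all rows. Cyp24a1, the enzyme gene that vitamin D induces to degrade its own hormone, stood near the floor at 2.21 and 2.45 in aldosterone rats, against 2.32 and 2.49 in vehicle rats, and was named after its values were seen. Rxra, the partner of the vitamin D receptor, stood at 6.97 and 6.93 in aldosterone rats, against 7.50 and 6.96 in vehicle rats. Cldn12, a claudin gene tied to calcium passage between cells, stood at 4.41 and 4.49 in aldosterone rats, against 4.55 and 4.74 in vehicle rats. Pdia3, which encodes a protein that binds vitamin D at the membrane, stood at 8.64 and 8.60 in aldosterone rats, against 8.79 and 8.29 in vehicle rats. Of these named genes Cldn12 alone did not overlap between the groups. Over the list 6 of the 14 genes did not overlap, 3 higher and 3 lower, where 27.8% of all rows did not, 16.7% higher and 11.1% lower. None had an unadjusted p under 0.05 in limma or passed after adjustment.

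**Figure D4:**
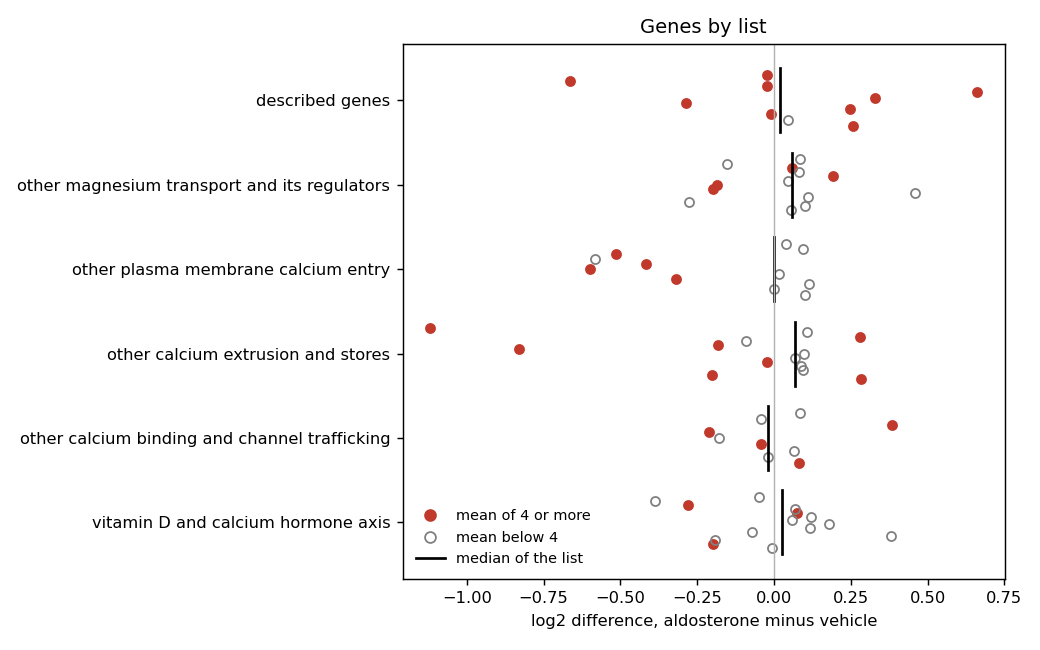
Log2 difference, aldosterone minus vehicle, of each measured gene in the 10 described genes (top line) and in 5 lists of related genes. Filled marks are genes with a mean of 4 or more, open marks genes below it, and a bar is the median of a list. The 4 filled genes of other calcium entry, among them the inhibitor gene Saraf, all lie below 0. The lowest mark is Slc8b1 at -1.12.

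Cell type markers were read beside these values. Of the 9 measured surface colonocyte markers, 7 had a positive difference. Negative differences made up 41.7% over all rows and 55.5% over rows with a mean of at least 4. Of the 9, 4 were higher without overlap, against 16.7% of all rows. The log2 of the summed linear values of the 9 was 14.55 and 14.55 in aldosterone rats, against 14.27 and 14.41 in vehicle rats. Slc26a3, the chloride-bicarbonate exchanger of surface cells, stood at 12.75 and 12.61 in aldosterone rats, against 11.96 and 12.30 in vehicle rats. The surface markers Car4 and Aqp8 had differences of 0.29 and 0.29, with overlap between the groups for Car4 and none for Aqp8. For Krt20, Guca2a, Epcam, Cdh1 and Krt8, also surface or general epithelial markers, the differences were 0.0667, 0.0196, 0.0873, -0.0213 and -0.00435. Slc9a3, a sodium-proton exchanger gene of surface cells, stood at 8.39 and 3.44 in aldosterone rats, against 2.48 and 3.99 in vehicle rats. Aldosterone replicate 1 thus stood apart. Other than Slc26a3 and Epcam, these genes were named after their values were seen. Of the 3 measured goblet cell markers, 2 had a positive difference, and their sum was 9.94 and 11.62 in aldosterone rats, against 11.29 and 10.95 in vehicle rats. That sum was lowest in aldosterone replicate 1, the rat with the highest Trpm6 and the lowest Trpv6. It was highest in aldosterone replicate 2, whose Trpm6 of 7.29 also lay above both vehicle rats. The Trpv6 of aldosterone replicate 2, at 8.20, lay between the vehicle rats. Tff3, which encodes a trefoil peptide of goblet cells, stood at 9.44 and 11.30 in aldosterone rats, against 11.12 and 10.74 in vehicle rats. It weighed most in the sum. Zg16, a goblet cell lectin gene chosen once its values were known, stood at 6.39 and 8.06 in aldosterone rats, against 5.14 and 4.45 in vehicle rats. In aldosterone replicate 1, Zg16 thus lay above both vehicle rats. Agr2, a goblet cell marker chosen likewise, stood at 7.69 and 8.52 in aldosterone rats, against 7.89 and 7.91 in vehicle rats, with overlap. Of the 7 measured markers of crypt and cycling cells, 6 had a positive difference, and their sum was 6.18 and 5.84 in aldosterone rats, against 6.04 and 5.77 in vehicle rats. The part of surface, crypt or goblet cell content in these values was not tested.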

How the data were processed

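The authors deposited log2 values, 1 per transcript cluster (row) and array. Affymetrix Expression Console, Partek and RMA are named, without version or order, per the submitters' processing notes. The log2 scale was read from the values. For genome build and detection calls the sources used here give nothing. Rows were named through the platform annotation, with 13327 rows of 19403 carrying 1 symbol, 620 several and 5456 none here.

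Aldosterone was compared with vehicle in limma 3.58.1 (R 4.3.3) (lmFit, eBayes, constant prior), two-sided, with Benjamini-Hochberg adjustment over all rows; the threshold was 0.05. The fit was tested on simulated data. Named are the 10 genes, Sgk1, Tsc22d3, Scnn1g, Fkbp5 and Per1 as known aldosterone targets, from each list of related genes up to 5 with a mean of 4 or more and the smallest p, and marker genes of high mean. Genes and lists were chosen with earlier results of these data known. Alternatives were quantile normalization, centring, low-value filters, an intensity trend, a robust prior, no moderation, a replicate block, leaving out each array and averaging rows of a gene. The number of arrays limits precision. Tables and figures were made in Python 3.11.15.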

Additional observations from a re-analysis of the deposited data

How the results depend on the processing

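The count of the 10 genes past an adjusted p of 0.05 was 0 under each of 13 alternatives. Of 129 fits of single genes under alternatives, 116 kept their direction and 13 reversed it. Quantile normalization turned Trpm7 (0.00589), Casr (0.0844) and Atp2b4 (-0.00256), and centring turned Atp2b4 (-0.0107), each from a difference close to 0. With 1 array left out, the differences ran from -0.48 to 0.43 for Trpm7, -0.0534 to 0.55 for Cnnm2, -0.17 to 0.69 for Atp2b1, -0.0824 to 0.18 for Atp2b4, -0.70 to 0.68 for Casr and -0.41 to 0.36 for Vdr. Trpm6, Trpv6, Cnnm4 and S100g kept their direction under each alternative, at 0.45 to 0.88, -1.14 to -0.19, -0.38 to -0.20 and 0.0436 to 0.61 with 1 array left out. The median of the 10 differences ran from -0.13 to 0.23 with 1 array left out.

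The count of the 10 genes at an unadjusted p under 0.05 was 1. It became 2 with quantile normalization (Trpm6 and Cnnm4), 0 with the intensity trend and 0 without moderation. With 1 array left out the count varied, and Trpm6 was not always among the genes counted. With the replicate number as a block it was 3 (Trpm6, Trpv6 and Cnnm4), and 0 passed after adjustment. The labels give a replicate number and do not say whether rats of the same number were paired. The differences between replicates 1 and 2 of the groups correlated at 0.15 across rows. Among genes of the related lists the count was 4, and it became 8 with quantile normalization, 2 without moderation, 8 with the replicate block and 3 to 9 with 1 array left out (9 without vehicle replicate 2). The count of genes whose groups do not overlap, 3, was 2 with quantile normalization and 3 with centring. It was 5 to 8 with 1 array left out, as fewer values overlap less often. No share of all rows is given here for that setting. The same holds for the counts of genes at an unadjusted p under 0.05 under every alternative. Without such shares, a change in these counts cannot be set against all rows, and no conclusion is drawn from it. The related lists held 13, 11, 13, 9 and 14 measured genes. Over all rows the count past an adjusted p of 0.05 was 0, with 879 rows at an unadjusted p under 0.05 in limma; it was 21 with the intensity trend and 1 with rows below the median left out. In fits with 1 array left out, a lone array was taken to vary as the other group does. The cause of these changes was not tested.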
